A study of Rattus norvegicus with 6 samples.

Results

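The infarcted hemisphere was compared with the opposite hemisphere of the same rats in 4 libraries of single nuclei: mMCAO ipsi against mMCAO contra, and sMCAO ipsi against sMCAO contra. MCAO is the permanent occlusion of the right middle cerebral artery with a filament, so that ipsi names the right, infarcted hemisphere and contra the left one. All rats were male wild-type animals of 12 weeks, and tissue was taken 48 h after the operation, mMCAO from 3 rats with moderate and sMCAO from 4 rats with severe infarctions, in a slab placed by magnetic resonance imaging. The other 2 of the 6 libraries, Sham L and Sham R, came from the hemispheres of 4 Sham-operated rats and are given beside the pairs where a statement rests on them. Both also entered the estimate of the spread behind the p-values, except for myeloid-like nuclei. Each library was 1 pool of rats, so p-values measure how the difference between hemispheres varies over pools and not the spread between animals. The 4 MCAO libraries held 46898 nuclei after filtering, and 22797 of them fell into 8 classes set by marker genes: glutamatergic, medium spiny and other GABAergic neurons, and astrocyte-like, oligodendrocyte precursor cell-like (OPC-like), oligodendrocyte-like, myeloid-like and vascular-like nuclei. Raw UMIs (molecules counted once each) were summed per library and class, and the hemispheres were compared with the pool as a block.

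An occluded artery starves its territory of oxygen and glucose, and neurons of the core die first. Astrocytes around a lesion take on intermediate filaments, matrix and cytokine receptors and can enter the cell cycle, OPC divide, and the resident microglia are joined by macrophages from the blood. The opposite hemisphere comes from the same animal and the same operation, without the occlusion on its side.

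The 6 libraries held 33012945 to 52513380 UMIs, and pairs of libraries shared 118 to 281 cell barcodes, at most 2.03% of a library. The sMCAO ipsi library stood apart, with 34.6% of its nuclei in the neuron gate against 66.6% to 87.6% in the others. Its gated nuclei were also deeper: glutamatergic nuclei had a median of 9478 UMIs against 4513 in sMCAO contra, and astrocyte-like nuclei 2403 against 853. Markers that the gates did not use followed most class names. For example, 6 such astrocyte markers summed to 1225 to 2247 CPM (UMI counts scaled to the total of the library and class) in astrocyte-like nuclei and 139 to 189 CPM in OPC-like nuclei of the 4 MCAO libraries. The list of other GABAergic neurons did not separate its class: it summed to 4546 to 5371 CPM in OPC-like nuclei and to 1606 to 2163 CPM in other GABAergic neurons, and nearly all of the former was Nxph1, at 4729 to 5862 CPM after the TMM scaling used for single genes but not for marker sums.

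Neuronal nuclei made up less, and myeloid-like, vascular-like, astrocyte-like and OPC-like nuclei more, of the infarcted hemisphere in both pairs. Nuclei that passed no gate went from 3.44% to 5.84% in the mMCAO pair and from 3.91% to 14.7% in the sMCAO pair. Nuclei of any class that are short of gate markers fall there, and their part in the shares was not tested. Myeloid-like nuclei were 1.04% (0.877 to 1.21) of nuclei in mMCAO contra and 5.52% (5.13 to 5.93) in mMCAO ipsi, with 95% Clopper-Pearson intervals in parentheses. They were 0.834% (0.671 to 1.02) in sMCAO contra and 15.6% (14.8 to 16.3) in sMCAO ipsi. The ratio of the hemispheres was 5.33 (4.47 to 6.40) in the mMCAO pair and 18.7 (15.1 to 23.4) in the sMCAO pair. Both Sham libraries lay below all 4 MCAO libraries, with 0.0457% and 0.0587%. Vascular-like nuclei went from 0.766% to 1.21% and from 0.565% to 5.49%, ratios of 1.58 (1.23 to 2.04) and 9.72 (7.43 to 12.9). These intervals cover counting error only.

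Medium spiny neurons, the projection neurons of the striatum, made up 8.56% of mMCAO contra and 4.10% of mMCAO ipsi, and 8.88% of sMCAO contra and 2.83% of sMCAO ipsi. Their ratio was 0.479 (0.432 to 0.531) in the mMCAO pair and 0.319 (0.276 to 0.367) in the sMCAO pair. Glutamatergic neurons had a ratio of 0.895 (0.841 to 0.953) in the mMCAO pair, with 15.4% and 13.8% of nuclei, and of 0.328 (0.296 to 0.363) in the sMCAO pair, with 16.5% and 5.42%. Other GABAergic neurons had ratios of 0.756 and 0.578. In the mMCAO pair the interval of medium spiny neurons, which covers counting error only, thus lay below those of both other neuron classes. Neurons of no type made up 41.5% of mMCAO contra and 43.5% of mMCAO ipsi, and 41.1% of sMCAO contra and 22.3% of sMCAO ipsi. Neurons short of type markers fall there, so a lower share of a type can also come from fewer marker UMIs per nucleus, which was not tested.

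Astrocyte-like nuclei had ratios of 1.30 (1.12 to 1.51) and 2.44 (2.07 to 2.88), and OPC-like nuclei of 1.51 (1.28 to 1.79) and 2.33 (1.92 to 2.84). With the stricter gate the OPC-like ratio of the mMCAO pair was 1.07 (0.861 to 1.34). Oligodendrocyte-like nuclei went opposite ways, from 11.8% to 8.40% in the mMCAO pair and from 10.3% to 16.1% in the sMCAO pair. The Sham hemispheres, neither of them infarcted, themselves had 6.61% and 2.16%. With 2 pairs no exact two-sided test can give a p under 0.5, so no share was tested. A share counts the nuclei recovered, and fewer nuclei of a type cannot be told apart from more nuclei of the others.

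**Figure D1:**
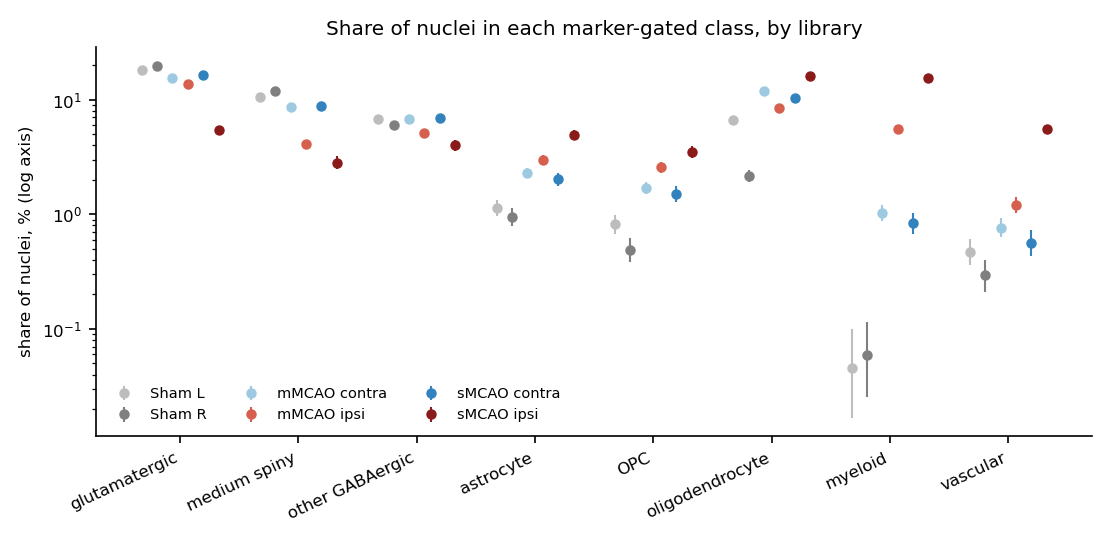
Share of kept nuclei in each marker-gated class (percent, log axis) in the 6 libraries, with 95% Clopper-Pearson intervals. Myeloid-like nuclei lie at 0.0457% and 0.0587% in the Sham libraries, at 0.834% and 1.04% opposite the infarct, and at 5.52% and 15.6% in the infarcted hemispheres.

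Calls needed a Benjamini-Hochberg adjusted p under 0.05 over the genes tested in the class (edgeR's quasi-likelihood F test) together with a log2 fold change of 0.6 or more in size. In astrocyte-like nuclei 491 (8.36%) of 5871 genes rose in the infarcted hemisphere and 418 (7.12%) fell, and in OPC-like nuclei 212 (3.96%) of 5360 rose and 199 (3.71%) fell. Glutamatergic neurons had 450 (3.27%) of 13765 genes higher and 312 (2.27%) lower, medium spiny neurons 123 (1.08%) of 11433 higher and 157 (1.37%) lower, and other GABAergic neurons 103 (0.931%) of 11065 higher and 60 (0.542%) lower. Oligodendrocyte-like nuclei had 32 (0.344%) of 9306 genes higher and 4 (0.043%) lower, and vascular-like nuclei 10 (0.255%) of 3926 higher and 25 (0.637%) lower. In myeloid-like nuclei 0 (0%) of 8429 genes were called by edgeR, with 834 at an unadjusted p under 0.05. Classes differ in depth, and their counts were not tested against each other.

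**Figure D2:**
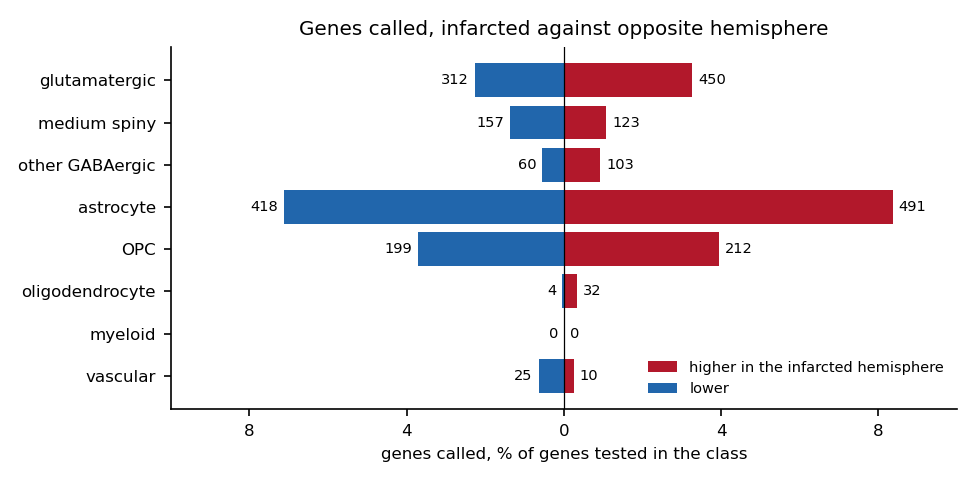
Genes called higher and lower in the infarcted hemisphere as a percent of the genes tested in each class, with the number of genes at each bar. Astrocyte-like nuclei have 491 higher and 418 lower, and myeloid-like nuclei have 0.

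In astrocyte-like nuclei of the infarcted hemisphere, genes of cell division and of reactive glia rose, and genes of transmitter and ion uptake fell. Of 23 listed mitosis genes 12 were tested, and 12 of them rose, beside 8.36% of all genes tested. With at most a few UMIs outside the infarcted libraries, such genes passed the filter on low counts through the infarcted libraries and had to differ, so this count is a description. Their median log2 fold change was 5.58, or 4.18 with the 5 genes absent from both opposite libraries at their lower bound, beside 0.00 over all genes tested. DESeq2 called 4 of the 12.

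Top2a, the topoisomerase that untangles replicated chromosomes, was at 105 CPM in mMCAO ipsi and 232 CPM in sMCAO ipsi, with 0 UMIs in the other 4 libraries. Cenpf, a kinetochore protein, was at 149.6 and 213 CPM in the infarcted libraries and at 0 in the other 4. Ect2, which places the cleavage furrow, was at 119 and 185 CPM and likewise at 0 elsewhere. Against a floor of 3 UMIs over the 2 opposite libraries, Cenpf was at least 31.7-fold, Top2a at least 31.6-fold and Ect2 at least 27.1-fold higher. The proliferation marker Mki67 was at 103 CPM in mMCAO ipsi and 173 CPM in sMCAO ipsi, against 1 UMI in both opposite libraries together. Of the DNA replication list 3 of 20 genes were tested and 3 rose, beside 8.36% of all genes tested. Among them the polymerase subunit Pola1 went from 81.6 to 239 CPM in the mMCAO pair and from 37.5 to 275 CPM in the sMCAO pair. Sgo2, which guards centromere cohesion, was at 91.0 and 180.1 CPM and the exonuclease gene Rexo5 at 113 and 138 CPM in the infarcted libraries, both with 0 UMIs opposite and 1 UMI in Sham L, and Rexo5 was at least 21.4-fold higher.

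The mitosis genes were also read per nucleus, after every nucleus had been thinned to 500 UMIs so that depth was equal. At least 2 mitosis UMIs were found in 39 of 385 astrocyte-like nuclei of mMCAO ipsi (10.1%, 7.30 to 13.6, 95% Clopper-Pearson interval) and in 59 of 429 of sMCAO ipsi (13.8%, 10.6 to 17.4). Opposite the infarct they were found in 0 of 332 nuclei of mMCAO contra, which allows a share of up to 0.904% by a limit of 3 nuclei (1.10% by Clopper-Pearson), and in 1 of 219 of sMCAO contra. The Sham libraries gave 0 of 149 and 0 of 129. OPC-like nuclei held such UMIs on both sides, in 3.66% of mMCAO contra and 19.3% of mMCAO ipsi and in 3.70% of sMCAO contra and 19.5% of sMCAO ipsi. Vascular-like nuclei had 0% and 4.46% in the mMCAO pair and 3.28% and 10.5% in the sMCAO pair. Unthinned, the astrocyte-like shares were 17.4% and 28.7% in the infarcted libraries and 0% and 0.913% opposite. Glutamatergic neurons, which do not divide, gave 0% to 0.0849% after thinning in the 6 libraries, from median depths of 3388 to 9478 UMIs, against 604 to 2403 UMIs in astrocyte-like nuclei. Unthinned, they gave 1.66% and 1.96% in the mMCAO pair and 1.79% and 4.04% in the sMCAO pair. In their summed UMIs 4 of 13 tested mitosis genes rose, beside 3.27% of all genes tested, with a median log2 fold change of 0.80. The source of this RNA was not tested.

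**Figure D3:**
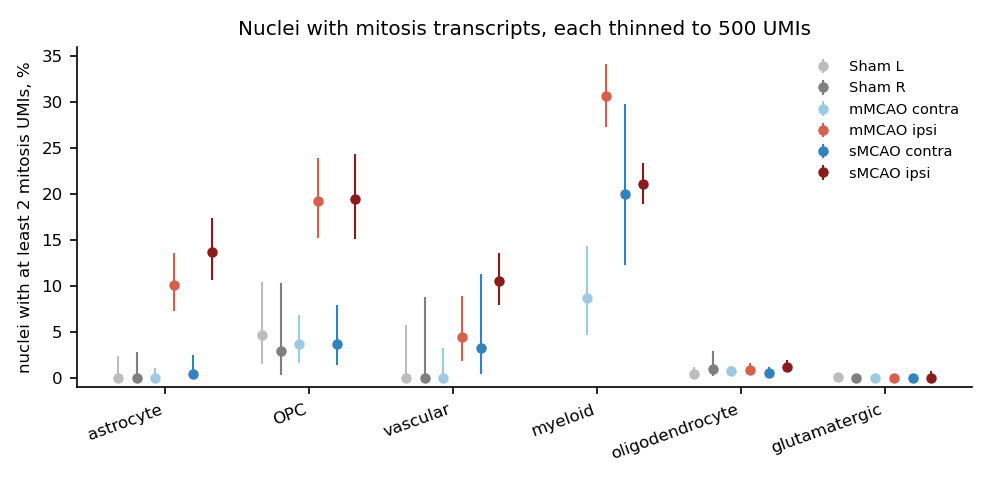
Percent of nuclei with at least 2 mitosis UMIs after thinning each nucleus to 500 UMIs, by class and library, with 95% Clopper-Pearson intervals; myeloid-like nuclei of the Sham libraries (6 and 8) are left out. Astrocyte-like nuclei lie at 10.1% and 13.8% in the infarcted libraries and at 0% and 0.457% opposite.

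Of 24 listed reactive glia genes 9 were tested in astrocyte-like nuclei and 9 rose, beside 8.36% of all genes tested. Their median log2 fold change was 3.65. With few UMIs opposite the infarct, members such as Osmr passed the filter on low counts through the infarcted libraries, so this count too is a description. Vim, an intermediate filament protein, went from 6.53 to 253 CPM in the mMCAO pair and from 48.3 to 797 CPM in the sMCAO pair and was at 0 and 0 CPM in Sham, a 20.5-fold difference (log2 4.36 ± 0.32 SE, edgeR quasi-likelihood adjusted p = 5.4e-10). Cd44, the receptor for hyaluronan and osteopontin, went from 32.7 to 505 CPM and from 64.4 to 655 CPM, 12.4-fold. Both infarcted libraries lay above the other 4 for both genes.

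Gfap, the astrocyte filament protein, was at 199 and 217 CPM in Sham and already higher opposite the infarct. It went from 627 to 2889 CPM in the mMCAO pair and from 1276 to 4544 CPM in the sMCAO pair, 4.04-fold. The oncostatin M receptor gene Osmr went from 3.27 to 97.0 CPM and from 16.1 to 115 CPM, and the copper carrier gene Cp from 29.4 to 129 CPM and from 53.6 to 338 CPM. These 3 genes too were higher in both infarcted libraries than in any other.

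Of the extracellular matrix list 9 of 12 tested genes rose, beside 8.36% of all genes tested, and members such as Fn1 again had few UMIs opposite the infarct. Fn1, fibronectin, went from 13.1 to 117 CPM in the mMCAO pair and from 10.7 to 197 CPM in the sMCAO pair and was at 0 and 0 CPM in Sham. The proteoglycan gene Ncan went from 55.5 to 285 CPM and from 75.1 to 433 CPM, and Tnc, a matrix glycoprotein, from 229 to 374 CPM and from 215 to 1013 CPM. Il1rap, the shared chain of the interleukin-1 and interleukin-33 receptors, went from 42.4 to 241 CPM and from 42.9 to 269 CPM, 5.88-fold (edgeR quasi-likelihood adjusted p = 4.2e-07). The small heat shock gene Hspb1 had 0 UMIs in both opposite and both Sham libraries and reached 74.8 and 216 CPM, at least 28.3-fold higher. Fn1, Ncan, Tnc and Il1rap were higher in both infarcted libraries than in the other 4.

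Of 18 listed genes for potassium, transmitter and water homeostasis 17 were tested, 10 fell and 1 rose, with a median log2 fold change of -0.90. Over all genes tested in this class 7.12% fell and 8.36% rose. Cbs, which makes cystathionine, went from 268 to 64.7 CPM in the mMCAO pair and from 263 to 83.2 CPM in the sMCAO pair, with 209 and 108 CPM in Sham (log2 -1.83 ± 0.25 SE, edgeR quasi-likelihood adjusted p = 4.4e-06). The GABA transporter gene Slc6a11 went from 434 to 139 CPM and from 493 to 225 CPM, with 294 and 217 CPM in Sham, and the amino acid transporter gene Slc7a10 from 268 to 74.8 CPM and from 215 to 99.5 CPM. Both infarcted libraries lay below the other 4 for Cbs and Slc7a10. Megf10, a phagocytic receptor, was the member that rose, from 268 to 471 CPM and from 338 to 527 CPM. Outside this list the vascular growth factor gene Vegfa fell from 336 to 111 CPM and from 311 to 131 CPM, and Mertk, another phagocytic receptor, from 1016 to 517 CPM and from 1040.4 to 394 CPM. Vegfa is on the glycolysis and hypoxia list, of which 13 genes were tested, 2 rose and 1 fell (median log2 fold change 0.20). Mertk is on the list of lysosomes and phagocyte lipid handling, of which 11 were tested, 2 rose and 1 fell (median 0.65).

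**Figure D4:**
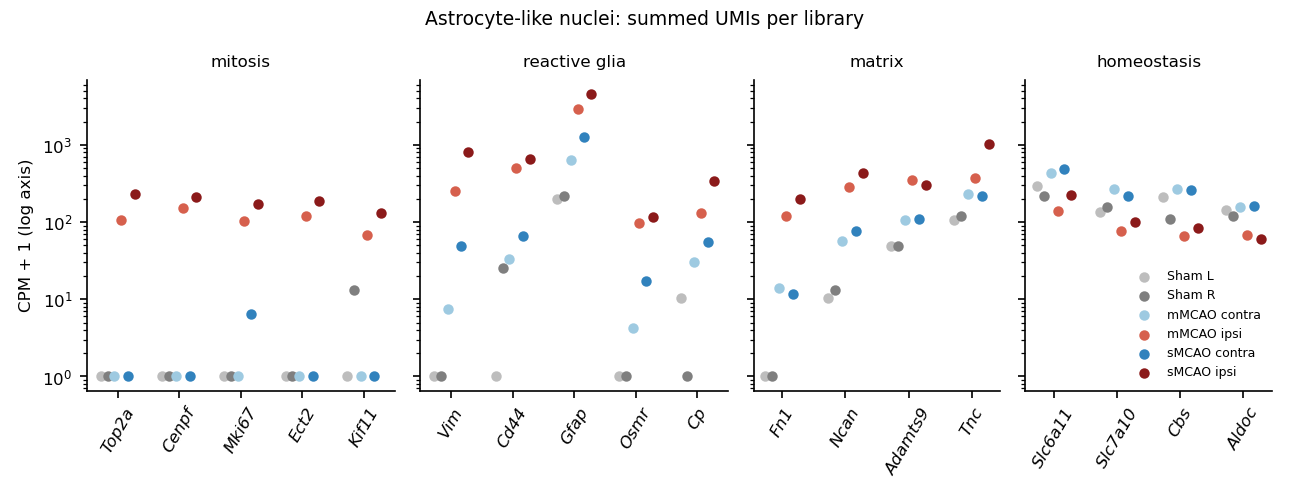
Astrocyte-like nuclei: CPM + 1 (log axis) of mitosis, reactive glia, matrix and homeostasis genes, with 1 point for each of the 6 libraries. Vim lies at 253 and 797 CPM in the infarcted libraries and at 6.53 and 48.3 opposite, and Cbs at 64.7 and 83.2 against 268 and 263.

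The largest falls in astrocyte-like nuclei were those of Zfp804b, Galntl6, Adam11, Thsd7b and Car10. Zfp804b, a zinc finger gene, went from 108 to 22.2 CPM and from 215 to 12.7 CPM, Galntl6 from 274 to 99.0 CPM and from 504 to 19.9 CPM, and Adam11, a membrane protein of neurons, from 189 to 28.3 CPM and from 129 to 15.4 CPM. Of the list of glutamate receptors and potassium channels 19 of 27 tested genes fell, beside 7.12% of all genes tested, and 1 rose. The latter was Grm5, a metabotropic glutamate receptor, from 1306 to 3226 CPM and from 1410.4 to 2817 CPM. Free neuronal RNA, estimated from neuron markers, moved with these falls, at 19.5% and 13.6% of UMIs in the mMCAO pair and 27.4% and 8.22% in the sMCAO pair. After its subtraction 8 of 13 tested channel genes fell and Adam11 still fell, while Zfp804b, Galntl6, Thsd7b and Car10 no longer had enough UMIs to be tested. The same subtraction left 12 mitosis and 9 reactive glia genes higher and 10 homeostasis genes lower. Over all genes tested after the subtraction, 330 were called higher and 212 lower. Mitosis genes and reactive glia genes such as Vim were at low levels in neurons, so a neuronal profile could take little from them. RNA of other cell types was not subtracted.

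In OPC-like nuclei mitosis genes rose as well, from levels above 0 on the opposite side. Of the extracellular matrix list 2 of 9 tested genes rose, and of the cytokine and receptor list 2 of 3, beside 3.96% of all genes tested. Adamts9 of the matrix list had too few UMIs opposite the infarct to pass the filter on low counts there, so the matrix count is a description. Of the mitosis list 13 of 14 tested genes rose, with a median log2 fold change of 2.03 beside -0.01 over all genes tested. Members such as Ect2 also had too few UMIs opposite the infarct to pass that filter there, so the mitosis count too is a description. Cenpf went from 31.8 to 262 CPM in the mMCAO pair and from 54.1 to 290.0 CPM in the sMCAO pair (log2 2.73 ± 0.30 SE, edgeR quasi-likelihood adjusted p = 1.3e-05), with 72.7 and 38.1 CPM in Sham. Mki67 went from 21.2 to 177 CPM and from 48.1 to 202 CPM, and Ect2 from 24.7 to 167 CPM and from 18.0 to 163 CPM. Both infarcted libraries lay above the other 4 for these 3 genes.

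Hmga2, a chromatin protein of proliferating precursors, was at 289 CPM in mMCAO ipsi and 367 CPM in sMCAO ipsi, against 1 UMI in the 2 opposite libraries together, a pooled ratio of 152 (95% counting interval 27.1 to 6031). The matrix protease gene Adamts9 was at 125 and 82.6 CPM against 1 UMI opposite, a pooled ratio of 44.1 (95% counting interval 7.70 to 1759.8). Cd44 was at 85.3 and 156 CPM against 2 UMIs, a pooled ratio of 29.3 (95% counting interval 7.93 to 245). Runx2, Osmr and Kif14 were the other rises named by size. Tnc went from 67.1 to 249.7 CPM and from 90.2 to 383 CPM, and the transcription factor gene Stat3 from 45.9 to 128 CPM and from 66.1 to 204 CPM. Axl, a receptor for apoptotic cells, went from 14.1 to 91.4 CPM and from 6.01 to 121 CPM, and Il1rap from 269 to 539 CPM and from 138 to 784 CPM. For Tnc, Stat3 and Il1rap both infarcted libraries were above both opposite ones.

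The largest falls in OPC-like nuclei were those of Il1rapl2, Htr2c, Camk2a, Samd5 and Galntl6. Samd5 went from 360.4 to 73.1 CPM and from 277 to 52.7 CPM, and the serotonin receptor gene Htr2c from 98.9 to 21.3 CPM and from 96.2 to 12.3 CPM. Of the channel list 7 of 30 tested genes fell, beside 3.71% of all genes tested. Among them was Kcnip4, from 1834 to 926 CPM and from 2219 to 645 CPM. Free neuronal RNA was estimated at 51.4% and 38.1% of UMIs in the mMCAO pair and 46.3% and 34.1% in the sMCAO pair. In astrocyte-like nuclei of the same libraries it was 19.5% and 13.6%, and 27.4% and 8.22%. The estimate takes every UMI of 5 neuron markers as free, so transcripts that OPC make of them themselves would raise it, which was not tested. Subtraction of this amount left 14 called genes in place of 411, with 0 of 14 mitosis genes called at a median log2 fold change of 1.82, and Hmga2 kept its call. The stricter gate left 12 calls.

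In oligodendrocyte-like nuclei few genes were called (0.344% higher and 0.043% lower), so that a short list would hold few or no calls at this share. Of 23 listed myelin and maturation genes 22 were tested, 0 were called and the median log2 fold change was 0.02. Scube1, a secreted and surface protein, went from 11.1 to 84.0 CPM in the mMCAO pair and from 17.9 to 277 CPM in the sMCAO pair (log2 3.47 ± 0.28 SE, edgeR quasi-likelihood adjusted p = 0.0012). Col5a3, a fibrillar collagen chain, went from 17.0 to 98.4 CPM and from 26.4 to 265 CPM, and Ubl7 from 32.7 to 163 CPM and from 42.2 to 260.5 CPM. Stat3 went from 47.7 to 146 CPM and from 53.8 to 326 CPM, and Cd63, a lysosomal membrane protein, from 11.8 to 57.5 CPM and from 24.3 to 120.0 CPM. Sema5b, a guidance protein, went from 42.5 to 123 CPM and from 34.8 to 286 CPM, with 79.4 and 137 CPM in Sham, so that Sham R lay above mMCAO ipsi. Both infarcted libraries lay above the other 4 for Scube1, Col5a3, Ubl7 and Stat3.

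The genes that fell were Bend5, Cntnap5c, Egfem1 and Akap2. Akap2, an anchoring protein of protein kinase A, went from 603 to 292 CPM and from 393 to 174 CPM, and Bend5 from 177 to 82.9 CPM and from 174 to 44.2 CPM. Of 33 tested channel genes 0 had a positive log2 fold change, 0 were called and the median was -0.96, while free neuronal RNA was 18.9% and 16.7% of UMIs in the mMCAO pair and 23.3% and 6.79% in the sMCAO pair. With the 4 MCAO libraries alone 0 genes were called (edgeR, 1009 at an unadjusted p under 0.05; DESeq2 on the 6 libraries called 56), without the block 2, and without the mMCAO pair 1184. The 10 myeloid markers went from 54.6 to 143 CPM and from 68.8 to 78.8 CPM in this class, and their part was not tested.

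Myeloid-like nuclei numbered 150 and 90 opposite the infarct and 715 and 1348 in the infarcted hemispheres, and the Sham libraries, with 6 and 8, were left out of the fit, which had 1 residual degree of freedom. DESeq2 called 0 genes, with 323 at an unadjusted p under 0.05. On counts simulated for this class, edgeR found 48% of genes changed 4-fold and 6% of those changed 2-fold. The genes below did not pass the threshold and were picked after their values were seen.

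Of 14 listed genes of homeostatic microglia 9 were tested and 1 had a positive log2 fold change, with a median of -0.84 beside 0.05 over all genes tested. Selplg, a selectin ligand, was at 559 and 158 CPM in the mMCAO pair and at 359 and 110.0 CPM in the sMCAO pair (log2 -1.77 ± 0.26 SE, edgeR quasi-likelihood adjusted p = 0.31). Tmem119, a surface protein of microglia, was at 76.5 and 21.7 CPM in the mMCAO pair and at 46.4 and 20.2 CPM in the sMCAO pair, and the protease inhibitor gene Cst3 at 819 and 429.7 CPM in the mMCAO pair and at 603 and 332 CPM in the sMCAO pair. Both infarcted libraries lay below both opposite ones for these 3 genes.

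Of 30 listed genes of lysosomes and phagocyte lipid handling 25 were tested and 20 had a positive log2 fold change, with a median of 0.49. Gpnmb, a lysosomal glycoprotein, was at 99.5 and 425 CPM in the mMCAO pair and at 324 and 802 CPM in the sMCAO pair. Plin2, a lipid droplet coat protein, was at 30.6 and 126 CPM in the mMCAO pair and at 69.5 and 226 CPM in the sMCAO pair. Spp1, osteopontin, was at 68.9 and 283 CPM in the mMCAO pair and at 382 and 722 CPM in the sMCAO pair, so that its level opposite the severe infarct was above that in the moderate infarct. Cd74, the invariant chain of antigen presentation, was at 15.3 and 42.1 CPM in the mMCAO pair and at 23.2 and 291 CPM in the sMCAO pair. Mitosis UMIs were found in 13 of 150 and 219 of 715 thinned nuclei of the mMCAO pair and in 18 of 90 and 284 of 1348 of the sMCAO pair.

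The gate for vascular-like nuclei pooled endothelial, mural and fibroblast markers, so these cells were not separated. Of the extracellular matrix list 1 of 13 tested genes rose, which was Tnc, beside 0.255% of all genes tested. Tnc had too few UMIs opposite the infarct to pass the filter on low counts there, so this count is a description. The 10 myeloid markers went from 164 to 337 CPM and from 225 to 295 CPM in this class and the held-out vascular markers from 2717 to 2534 CPM and from 2146 to 1705 CPM, and their part in the rises below was not tested. Postn, periostin, was at 193 CPM in mMCAO ipsi and 397 CPM in sMCAO ipsi, against 2 UMIs in both opposite libraries, a pooled ratio of 35.2 (95% counting interval 9.66 to 292). Tnc was at 122 and 521 CPM against 3 UMIs, a pooled ratio of 29.2 (95% counting interval 9.93 to 142), and the collagen gene Col15a1 at 109 and 292 CPM against 2, a pooled ratio of 25.3 (95% counting interval 6.91 to 209.9). Rad51b, a recombination protein, went from 38.8 to 212 CPM and from 30.3 to 525 CPM (log2 3.14 ± 0.47 SE, edgeR quasi-likelihood adjusted p = 0.0054). The formin gene Diaph3 went from 23.3 to 289.8 CPM and from 106 to 490.1 CPM, and Igfbp3, which binds insulin-like growth factors, from 38.8 to 109 CPM and from 30.3 to 412 CPM. For Rad51b, Diaph3 and Igfbp3 both infarcted libraries lay above both opposite ones.

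Of 20 listed immediate early genes 7 were tested in vascular-like nuclei, 3 fell and 0 had a positive log2 fold change. Jun, a subunit of the AP-1 factor, went from 698 to 238 CPM and from 303 to 106 CPM, Jund, another subunit, from 326 to 103 CPM and from 212 to 70.8 CPM, and the antiproliferative gene Btg2 from 791 to 245 CPM and from 546 to 146 CPM. After subtraction of free neuronal RNA 3 of the list fell, among 10 genes called lower in that fit. The largest falls were those of Zfp804b, Cntnap5c, Kcnc2, Kirrel3 and Galnt13, and free neuronal RNA moved with them, at 31.5% and 22.1% of UMIs in the mMCAO pair and 50.2% and 9.42% in the sMCAO pair. Of 25 listed endothelial barrier genes 14 were tested and 0 were called, and 4 had a positive log2 fold change, with a median of -0.34. Over all genes tested in this class 0.255% were called higher and 0.637% lower, so a short list would hold few or no calls. With nuclei that passed more than 1 gate kept, 0 vascular genes were called (edgeR, 467 at an unadjusted p under 0.05), and in the gated nuclei DESeq2 called 5, the fit without the block 11 and the fit without the mMCAO pair 270.

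In glutamatergic neurons 4 of 18 tested genes of the extracellular matrix list and 4 of 11 of the cytokine and receptor list rose in the infarcted hemisphere, and 1 of the latter fell. Over all genes tested in this class 3.27% rose and 2.27% fell. Col5a3 had the largest rise of those named by size, from 6.04 to 114 CPM in the mMCAO pair and from 7.60 to 226 CPM in the sMCAO pair, with 1.24 and 1.94 CPM in Sham, 23.7-fold (log2 4.56 ± 0.14 SE, edgeR quasi-likelihood adjusted p = 1.3e-08). The matrix protein gene Abi3bp went from 37.8 to 169 CPM and from 29.2 to 279.6 CPM, and Slc7a11, the cystine-glutamate exchanger, from 46.0 to 128 CPM and from 50.3 to 181 CPM. Sema3c, a secreted guidance cue, went from 36.7 to 84.1 CPM and from 27.4 to 117 CPM. Glis3 and Klhl1 were the other rises named by size. Abca1, a cholesterol exporter, went from 7.79 to 39.2 CPM and from 8.93 to 44.4 CPM, and Il1r1, the interleukin-1 receptor, from 3.59 to 19.8 CPM and from 5.95 to 40.4 CPM. Col5a3, Abi3bp, Slc7a11, Abca1 and Il1r1 were higher in both infarcted libraries than in the other 4.

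Camk2a, the calcium-dependent kinase of excitatory synapses, fell from 608 to 352 CPM in the mMCAO pair and from 619 to 243 CPM in the sMCAO pair (log2 -1.06 ± 0.12 SE, edgeR quasi-likelihood adjusted p = 2.9e-04), with 605 and 561 CPM in Sham. Camkk2, a kinase upstream of calmodulin-dependent kinases, fell from 77.7 to 37.5 CPM and from 70.6 to 31.9 CPM, and the kinase gene Mast3 from 130.2 to 49.9 CPM and from 116 to 45.4 CPM. The potassium channel gene Kcnk4 fell from 92.6 to 41.0 CPM and from 88.0 to 40.6 CPM, and Gsg1l, an auxiliary subunit of AMPA receptors, from 125 to 65.9 CPM and from 124 to 38.3 CPM. Of 33 tested members of the channel list 1 fell and 0 rose, near the 2.27% of all genes that fell in this class. Of 10 tested reactive glia genes 7 rose, beside 3.27% of all genes tested. They rose at low levels such as those of Vim, from 0.306 to 4.53 CPM and from 0.882 to 5.18 CPM. Vim had too few UMIs opposite the infarct to pass the filter on low counts there, so this count is a description. In the same nuclei the 6 held-out astrocyte markers went from 7.81 to 10.2 CPM and from 10.8 to 15.4 CPM and the 10 myeloid markers from 40.9 to 56.1 CPM and from 39.6 to 62.2 CPM, and their part was not tested. The 5 held-out glutamatergic markers themselves went from 274 to 166 CPM and from 268 to 149 CPM.

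In medium spiny neurons Ctnnal1, a catenin-like protein, went from 38.0 to 114 CPM in the mMCAO pair and from 28.6 to 56.6 CPM in the sMCAO pair (log2 1.36 ± 0.15 SE, edgeR quasi-likelihood adjusted p = 1.0e-04), with 56.8 and 55.7 CPM in Sham, and Npl, a sialic acid lyase, from 57.0 to 138 CPM and from 56.4 to 102 CPM. Lrmda, Kif17, Pard3b and Ano5 were the other rises named by size. Zfp804b fell from 173 to 40.8 CPM and from 125 to 19.5 CPM, Cadps2, a vesicle priming protein, from 52.6 to 21.3 CPM and from 94.6 to 11.7 CPM, and the kainate receptor gene Grik1 from 73.4 to 27.0 CPM and from 75.0 to 9.76 CPM, and Pdzrn3 and Sox5 fell as well. The held-out markers of other GABAergic neurons moved with these falls in this class, from 245 to 176 CPM and from 342 to 135 CPM, and their part was not tested. With the stricter gate 103 genes were called in place of 280.

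In other GABAergic neurons Ca12, a carbonic anhydrase, went from 21.1 to 74.9 CPM in the mMCAO pair and from 29.1 to 67.4 CPM in the sMCAO pair (log2 1.53 ± 0.17 SE, edgeR quasi-likelihood adjusted p = 3.5e-07), and Npl from 25.5 to 62.5 CPM and from 23.1 to 54.1 CPM. Stat3 went from 30.1 to 60.5 CPM and from 27.8 to 68.9 CPM, and the retinoic acid receptor gene Rarb from 319 to 618 CPM and from 265 to 486 CPM. Rarb is one of the 6 held-out markers of medium spiny neurons, which in sum went from 544 to 829.7 CPM and from 485 to 699 CPM in this class. Rarb itself makes up a large part of this sum, so the sum does not show whether the other markers moved, which was not tested. Kcnk13 and Strip2 rose too. Nrxn2, a presynaptic adhesion protein, fell from 195 to 113 CPM and from 175 to 121 CPM, and Lypd6b, Cabp1, Mical2 and Olfm1 fell as well. The 4 MCAO libraries alone gave 14 calls in place of 163, the fit without the block 66, and the stricter gate 17.

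Across the 8 classes 2003 genes were called in at least 1 class, and 39 of them were higher in 1 class and lower in another. Of the 3 features called higher in 6 classes 2 have no gene symbol, and gate markers, mitochondrial genes and features without a symbol are left out below. Vim (ENSRNOG00000018087) was called higher in 6 classes, the 3 neuronal ones and astrocyte-like, OPC-like and oligodendrocyte-like nuclei. Its UMIs in glutamatergic neurons opposite the infarct were too few to pass the filter on low counts there. In vascular-like nuclei Vim was at 620.4 and 715 CPM in the mMCAO pair and at 439.9 and 993 CPM in the sMCAO pair and was not called. Stat3 (ENSRNOG00000019742), the factor downstream of gp130 receptors, rose in 5 classes, the neuronal ones and OPC-like and oligodendrocyte-like nuclei. In astrocyte-like nuclei Stat3 was at 212 and 243 CPM in the mMCAO pair and at 188 and 275 CPM in the sMCAO pair and was not called. Fth1 (ENSRNOG00000022619), the heavy chain of ferritin, rose in 5 classes, for example from 71.8 to 101 CPM and from 80.4 to 330.2 CPM in astrocyte-like nuclei, and its counts are uncertain because near-identical copies of the gene exist. Diaph3 (ENSRNOG00000008986) rose in 5 classes as well.

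Cd44 was called in 4 classes, astrocyte-like, OPC-like and oligodendrocyte-like nuclei and glutamatergic neurons, and Spp1, which codes for one of its ligands, in 4, the 3 neuronal classes and oligodendrocyte-like nuclei. In neurons Spp1 stood at 3.25 to 23.0 CPM in the infarcted libraries and at 0.153 to 0.934 CPM opposite, and Gpnmb at 4.63 to 16.3 and 0 to 0.856 CPM. Spp1 and Gpnmb thus had too few UMIs opposite the infarct to pass the filter on low counts there, so their neuronal calls are a description. Myeloid-like nuclei of the infarcted side had 283 to 722 CPM of Spp1 and 425 to 802 CPM of Gpnmb. The held-out myeloid markers moved with both, from 22.7 to 52.9 CPM and from 36.2 to 53.3 CPM in medium spiny neurons and from 46.2 to 61.0 CPM and from 54.7 to 66.0 CPM in other GABAergic neurons, and their part was not tested. Tnc, Sema3c and Rai14 were also called in 4 classes each.

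Of the 18 genes higher in at least 4 classes, 13 had a RefSeq promoter (GRCr8). In the 250 bases before the start the AP-1 word TGANTCA was found in 1, Gpnmb, and the STAT word TTCNNNGAA in 1, Diaph3, beside 6.34% and 7.67% of 33469 promoters, with each word its own reverse complement. The words are only letters in these windows, and other stretches were not searched.

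**Figure D5:**
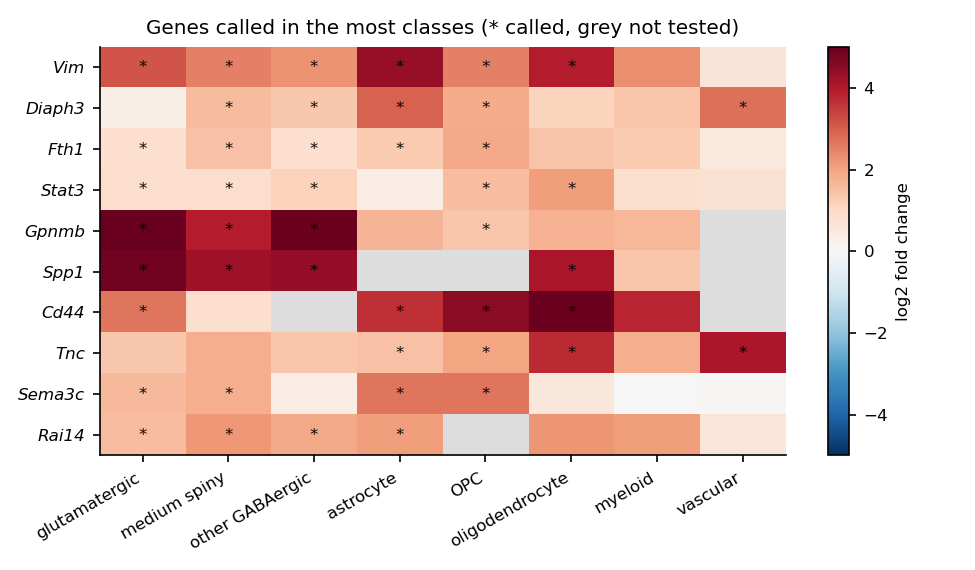
Log2 fold change of the infarcted against the opposite hemisphere for the 10 genes called in the most classes, leaving out gate markers, mitochondrial genes and features without a symbol, by class; an asterisk marks a call and grey a gene not tested. Vim is called in 6 classes, and 0 genes are called in myeloid-like nuclei.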

How the data were processed

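Single nuclei were measured in 6 libraries, each 1 hemisphere of pooled rats. The authors aligned the reads to mRatBN7.2 with Cell Ranger 7.0.0 and deposited filtered matrices of raw UMI counts per gene and nucleus (30560 features, 7162 without a symbol). The labels gave the groups MCAO ipsi, MCAO contra and Sham, and replicate numbers 1 and 2 stand for the mMCAO and sMCAO pools.

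Nuclei with at least 500 UMIs, 250 to 5000 genes and at most 5% mitochondrial UMIs were kept. A nucleus entered a class when its gate markers gave at least 3 UMIs from 2 or more genes and reached a share per 10000 UMIs of 60 for astrocytes, 50 for OPC, 30 for oligodendrocytes, 15 for myeloid and vascular cells and 20 for ependymal cells. Neurons needed 30, and then 20 for glutamatergic, 30 for medium spiny and 25 for other GABAergic neurons. No doublet caller was run, and nuclei that passed more than 1 gate were left out as mixed. These limits were set after the distributions of the gate markers had been seen. For neuron types several rules were tried, absolute and relative, and the absolute one, which left most neurons untyped, was kept and carried through alone.

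UMI counts were summed per library and class, filtered with filterByExpr, scaled by TMM and tested with edgeR 4.0.16 (glmQLFTest, R 4.3.3) on the pool and the infarcted hemisphere, over 6 libraries with 2 residual degrees of freedom. The Sham pair entered only the estimate of the spread, and with an MCAO pair left out that estimate came from the Sham pair alone. CPM are UMI counts scaled to the TMM-adjusted total of the library and class, and SE is the log2 fold change over the root of F. Libraries of 1 pool came from the same rats, so the pool stayed as a block, although the correlation of paired deviations over genes was only -0.08 to 0.11. Shares have Clopper-Pearson intervals, and ratios of shares conditional binomial ones. Neuron markers in glial nuclei set the amount of free neuronal RNA to subtract. On counts simulated for each 6-library class the test found 11% (vascular) to 74% (glutamatergic) of genes changed 2-fold and 75% to 93% of those changed 4-fold. DESeq2 1.42.0, other scaling, filters, gates and sample sets were alternatives.

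Named genes were, per class, the 6 largest rises and 5 largest falls among called genes with the same sign in both pairs and 50 CPM in both libraries of the higher side, without gate markers, mitochondrial genes and genes without a symbol; the 10 genes called in the most classes; and up to 4 called members per list. Other members of the lists, named for their role, and the myeloid genes were added after their values were seen. The members and lists were chosen with earlier results of these data known. Some genes that these rules select are not reported here.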

Additional observations from a re-analysis of the deposited data

Results flagged for a closer look

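The share of oligodendrocyte-like nuclei was lower in the infarcted than in the opposite hemisphere of the mMCAO pair, with a ratio of 0.713, and higher in the sMCAO pair, with a ratio of 1.55. The pairs thus went opposite ways, each with 1 library per hemisphere, and the difference between them was not tested.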

How the results depend on the processing

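Calls rested on 2 pools and varied with the fit; the cause of each change was not tested, except that fewer libraries or nuclei leave less to test. DESeq2 called 376 genes in glutamatergic neurons, 70 in medium spiny neurons, 13 in the other GABAergic class, 239 in astrocyte-like nuclei, 74 in OPC-like nuclei, 56 in the oligodendrocyte-like class and 5 in the vascular-like class. Without the replicate block 66 genes were called in other GABAergic neurons, 2 among oligodendrocyte-like and 11 among vascular-like nuclei, and the 4 MCAO libraries alone gave 14, 0 and 16. Leaving out the mMCAO or the sMCAO pair gave 760 to 1384 calls in glutamatergic neurons, 413 to 775 in astrocyte-like, 112 to 267 in OPC-like nuclei, 45 to 1184 among oligodendrocyte-like ones and 35 to 270 among vascular-like ones; in myeloid-like nuclei it left no residual degrees of freedom. RLE scaling gave 59 calls in vascular-like nuclei. Without the low-count filter there were 461 in medium spiny neurons, 708 in oligodendrocyte-like, 321 in myeloid-like and 126 in vascular-like nuclei. The stricter gate gave 103 in medium spiny and 17 in other GABAergic neurons, 12 in OPC-like nuclei, 15 in the oligodendrocyte-like class and 16 in the vascular-like class. Like numbers of calls were not the same genes. In glutamatergic neurons the stricter gate gave 765 beside 762 in the main fit, and held 60.9% of the main calls. With a pair left out, calls in glutamatergic neurons, OPC-like and vascular-like nuclei also overlapped only in part with the main ones. With mixed nuclei kept there were 1375 in astrocyte-like nuclei, 633 in OPC-like nuclei and 0 in the vascular-like class (edgeR, 467 at an unadjusted p under 0.05). Subtracting free neuronal RNA gave 542 in astrocyte-like, 14 in OPC-like, 69 in oligodendrocyte-like and 21 in myeloid-like nuclei.

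Of 259 named calls, 62 were lost without the block, 158 with DESeq2, 1 with RLE scaling, 4 without the low-count filter and 36 with mixed nuclei kept; of those still tested, 64 of 258 were lost with the 4 MCAO libraries alone, 49 of 248 without the mMCAO pair, 89 of 251 without the sMCAO pair, 83 of 210 with the stricter gate and 42 of 113 after subtraction of free RNA. Among values that were not called, the log2 fold change of Sema3c in myeloid-like nuclei turned to 0.084 without the filter, 0.59 with the stricter gate and 0.35 with mixed nuclei kept, and in vascular-like nuclei to -0.032 without the block and -0.16 after subtraction, with -0.17 to 0.24 when a pair was left out. With a pair left out, Rai14 in vascular-like nuclei lay at -0.090 to 1.503 and Nxph1 in OPC-like nuclei at -0.30 to 0.10. With the stricter gate the share ratios of the mMCAO and sMCAO pairs were 0.725 and 0.290 for glutamatergic and 0.308 and 0.127 for medium spiny neurons and 1.07 and 1.89 for OPC-like nuclei, and those of the sMCAO pair 2.01 for astrocyte-like and 32.5 for myeloid-like nuclei. With mixed nuclei kept, the sMCAO ratios were 1.74 for OPC-like, 1.34 for oligodendrocyte-like and 12.4 for myeloid-like nuclei.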
